A study of Homo sapiens with 12 samples.

Results

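The genes of oxidative phosphorylation were followed in Z138, a human mantle cell lymphoma line, after AU-15330 or its vehicle. The 111 genes were those whose symbol in the deposited table begins with NDUF, UQCR, COX4 to COX8 or ATP5, or is SDHA to SDHD or a mitochondrial ND, CO, ATP or CYB gene, and whose value lay above the lowest value of the table in every library. They were 111 of 20318 rows, after the row with the highest mean had been taken for each symbol. Of these genes 90 encode subunits of the 5 complexes, 78 in the nucleus and 12 in the mitochondrial genome. A further 8 are assembly factors of complex I, 4 are other factors or paralogues, and 9 are pseudogenes or readthrough genes that the name patterns also take in. MT-ATP8 is not analysed here. CYC1, a subunit of complex III, has a symbol outside these patterns and is given apart.

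The 4 groups were Z138 cells, labelled wild type, in 0.5 µM AU-15330 for 8 h (3 libraries), DMSO for 8 h (2 libraries), 0.5 µM AU-15330 for 24 h (3 libraries) and DMSO for 24 h (3 libraries). AU-15330 is a PROTAC, a compound that marks its targets for destruction by the proteasome. Its targets are PBRM1 and both ATPases of BAF, SMARCA2 and SMARCA4, which drive the sliding and ejection of nucleosomes. DMSO at 8 h counts as 2 because a pair of columns that carry 1 library name hold identical values. The labels give each time its own batch, so time and batch cannot be told apart, and all libraries come from 1 cell line with no statement of separate cultures. Therefore the p-values measure the spread between these libraries, which may be technical.

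Oxidative phosphorylation couples the passage of electrons from NADH and succinate to oxygen with the pumping of protons, and the proton gradient drives ATP synthesis. Complex I takes electrons from NADH, complex II from succinate, complex III passes them from ubiquinol to cytochrome c, complex IV reduces oxygen, and complex V is the ATP synthase. Complex II is encoded by nuclear genes alone, and it is also the enzyme of the citric acid cycle that oxidises succinate, whereas the other complexes combine subunits from both genomes. Nuclear genes of the pathway carry sites for factors such as NRF1 and GABP, an ETS protein, in many promoters.

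Values are normalised counts recovered from the deposited scale, and differences are given on log2(normalised count + 60), where 60 normalised counts are about 1 CPM, the depth-scaled unit. Adjusted p-values come from limma on the deposited scale with Benjamini-Hochberg adjustment over 12721 tested genes, and rose, fell, higher and lower calls refer to an adjusted p under 0.05. The libraries hold an estimated 50700000 to 67600000 counts. Of the 111 genes 105 passed the filter for testing, and COX6B2 and 5 pseudogenes did not. B cell markers were present in every library, with MS4A1 (CD20) between 10468 and 37107 normalised counts, and CCND1, the cyclin that marks mantle cell lymphoma, was higher still. All 5 B cell markers fell at 24 h and 4 of 5 at 8 h, where 26.2% and 21.4% of all tested genes were lower. The markers of T, myeloid and erythroid cells present in the table had at most 75.8 normalised counts, and none passed the filter. In bulk RNA, fewer cells of a kind and less RNA per cell cannot be told apart.

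Promoter sequences are shown for 6 genes on which the results turn: both subunits of complex II that moved in opposite directions, and a gene each for complexes I, III, IV and V. Each is the 250 bases before the start given by RefSeq (GRCh38.p14), read 5′ to 3′ on the strand of the gene, and other annotations place some of these starts elsewhere. Capitals mark GCATGCGC (the NRF1 core) and the longer NRF1 consensus with a free middle base, CCGGAAG (ETS), AAGATGGC (YY1), CACGTG (E-box) and CCAAT, searched on both strands. SDHA lies at chr5:218070-218319 (plus strand), SDHB at chr1:17054033-17054282 (minus), UQCRFS1 at chr19:29213152-29213401 (minus), NDUFC1 at chr4:139302552-139302801 (minus), COX7A2L at chr2:42361218-42361467 (minus) and ATP5IF1 at chr1:28235874-28236123 (plus).
SDHA: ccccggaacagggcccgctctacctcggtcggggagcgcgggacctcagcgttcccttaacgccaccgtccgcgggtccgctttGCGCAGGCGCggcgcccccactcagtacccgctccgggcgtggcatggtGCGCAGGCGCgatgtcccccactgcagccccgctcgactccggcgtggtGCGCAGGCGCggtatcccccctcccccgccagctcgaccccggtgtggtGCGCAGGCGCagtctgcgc
SDHB: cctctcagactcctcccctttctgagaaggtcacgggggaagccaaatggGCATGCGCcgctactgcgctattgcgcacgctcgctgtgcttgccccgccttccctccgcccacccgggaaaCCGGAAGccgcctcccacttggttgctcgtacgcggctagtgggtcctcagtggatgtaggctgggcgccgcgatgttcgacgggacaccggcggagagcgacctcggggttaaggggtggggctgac
UQCRFS1: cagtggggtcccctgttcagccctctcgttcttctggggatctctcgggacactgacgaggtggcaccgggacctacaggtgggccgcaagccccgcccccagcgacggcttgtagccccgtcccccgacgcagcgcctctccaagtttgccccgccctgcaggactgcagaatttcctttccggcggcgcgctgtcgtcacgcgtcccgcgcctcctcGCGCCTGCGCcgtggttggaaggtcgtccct
NDUFC1: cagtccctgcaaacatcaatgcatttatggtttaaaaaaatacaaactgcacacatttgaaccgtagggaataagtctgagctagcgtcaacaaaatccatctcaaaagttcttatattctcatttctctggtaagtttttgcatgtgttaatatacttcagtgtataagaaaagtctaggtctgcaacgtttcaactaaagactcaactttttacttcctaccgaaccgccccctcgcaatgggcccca
COX7A2L: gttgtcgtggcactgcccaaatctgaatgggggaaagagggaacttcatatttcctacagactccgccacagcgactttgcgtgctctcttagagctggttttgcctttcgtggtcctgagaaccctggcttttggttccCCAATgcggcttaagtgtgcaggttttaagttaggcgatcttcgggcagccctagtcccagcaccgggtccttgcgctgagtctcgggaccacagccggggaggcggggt
ATP5IF1: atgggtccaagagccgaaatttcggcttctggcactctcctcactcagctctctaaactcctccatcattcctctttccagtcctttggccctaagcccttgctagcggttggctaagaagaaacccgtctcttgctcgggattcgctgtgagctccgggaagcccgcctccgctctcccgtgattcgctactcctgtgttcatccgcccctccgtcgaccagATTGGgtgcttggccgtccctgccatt

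The SDHA window held the longer NRF1 consensus at 4 places, and the UQCRFS1 window held it at 1. This motif was added after the SDHA window had been seen. SDHB had 1 GCATGCGC and 1 CCGGAAG, COX7A2L and ATP5IF1 had 1 CCAAT each, and the NDUFC1 window held none of the 6 motifs. RefSeq windows were at hand for 63 of the 78 nuclear subunits. Among them 19.05% held GCATGCGC, against 2.63% of all 35116 promoters in the table. The longer NRF1 consensus was in 20.63% of the subunits' windows against 5.07% of all, and CCGGAAG was in 25.4% against 8.52%. The shares lay closer together for AAGATGGC (1.59% and 1.36%), CACGTG (9.52% and 6.34%) and CCAAT (30.16% and 32.01%). The 2 NRF1 motifs can overlap in a window, and a match is a run of letters, not a measured binding site. Each subunit has 1 window, whereas the 35116 promoters were not limited to 1 window per gene or to tested genes. They were not matched for base content either, so the shares compare unlike sets.

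The first question was how the nuclear and the mitochondrial genes of the pathway compared in the 4 groups. The 78 nuclear subunits together took up 1.26%, 1.18% and 1.23% of the normalised counts in AU-15330 at 8 h, against 1.16% and 1.16% in DMSO at 8 h. At 24 h they took up 1.23%, 1.22% and 1.23% in AU-15330, against 1.14%, 1.11% and 1.13% in DMSO. All AU-15330 libraries were above all DMSO libraries of the same time. Each share is divided by the sum of normalised counts of its library. At 24 h that sum was 57824748, 58488571 and 58640264 in AU-15330, against 60768298, 60373388 and 60500712 in DMSO. A lower sum raises a share, whereas the log2 differences of single genes are not divided by it. The 12 mitochondrial subunits took up 0.705%, 1.06% and 0.777% in AU-15330 at 8 h, against 1.06% and 0.935% in DMSO at 8 h. They took up 1.22%, 1.21% and 1.03% in AU-15330 at 24 h, against 1.22%, 1.22% and 1.13% in DMSO at 24 h. For them the groups overlapped at both times, and AU-15330 replicate 2 at 8 h stood with the DMSO libraries.

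**Figure D1:**
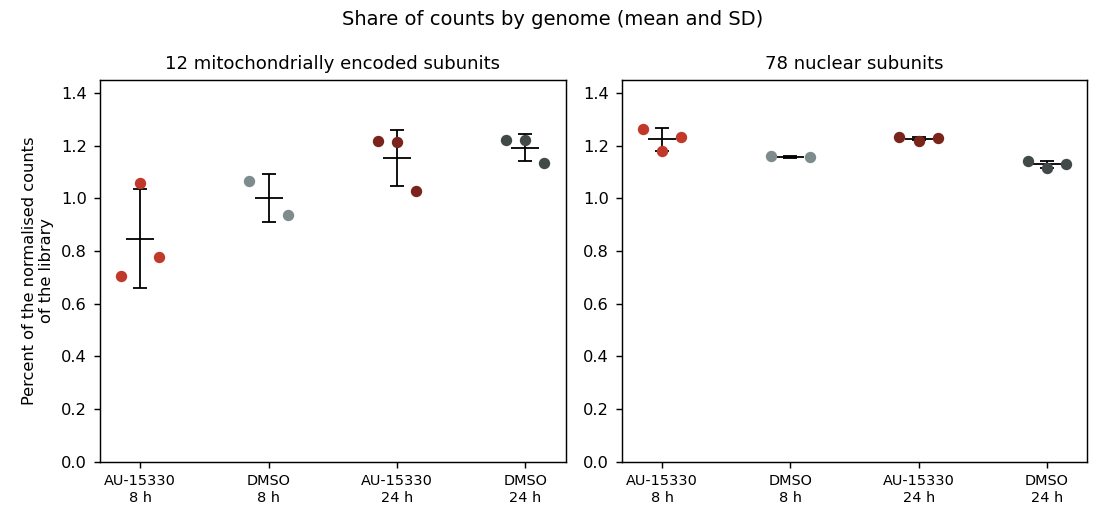
Percent of the normalised counts of each library (vertical axis) taken up by the 12 mitochondrially encoded subunits (left) and the 78 nuclear subunits (right), with 1 point per library, the mean as a dash and the SD as bars. The nuclear share averaged 1.23 ± 0.007% in AU-15330 and 1.13 ± 0.014% in DMSO at 24 h, while the mitochondrial shares of AU-15330 and DMSO overlapped at both times.

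The ratio of summed mitochondrial to summed nuclear subunit counts was 0.558, 0.899 and 0.631 in AU-15330 at 8 h and 0.918 and 0.81 in DMSO at 8 h. It was 0.986, 0.995 and 0.838 in AU-15330 at 24 h and 1.07, 1.1 and 1.00 in DMSO at 24 h. At 24 h the ratio was lower in every AU-15330 library than in every DMSO library, whereas at 8 h the groups overlapped. Levels per kilobase of coding transcript, with lengths from GENCODE 29, were higher for the mitochondrial genes. The median mitochondrial subunit had 33279.9 normalised counts per kilobase in AU-15330 and 38174.9 in DMSO at 8 h, and 43682.2 in AU-15330 and 43841.6 in DMSO at 24 h. The median nuclear subunit had 7385.8 in AU-15330 and 7199.0 in DMSO at 8 h, and 7565.3 in AU-15330 and 7245.4 in DMSO at 24 h, over 76 subunits with a known length. The highest nuclear level per kilobase in each group belonged to ATP5F1B, the catalytic beta subunit of the synthase, and the highest mitochondrial level to MT-CO3, a core membrane subunit of complex IV. MT-ND6, the subunit encoded on the light strand, had the lowest mitochondrial level per kilobase in each group.

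Complexes differed in their nuclear levels per kilobase, and the order of their medians, IV, V, III, II and I from high to low, was the same in the 4 groups. In DMSO at 24 h the median nuclear subunit had 13863.9 normalised counts per kilobase in complex IV, 12630.2 in complex V, 8014.2 in complex III, 6286.6 in complex II and 4367.7 in complex I. In AU-15330 at 24 h the same medians were 14787.0, 12593.1, 8010.4, 5345.9 and 4828.0. The ranges of the complexes overlapped, and single genes such as UQCRFS1 in complex III and NDUFV3 in complex I lay far below their own complex's median. Their lengths here were 3475 and 3125.5 bases, and a long length lowers a level per kilobase. Each length is the median over the annotated coding transcripts of a gene, whichever of them the cells make. SDHC, at 460 bases, had the highest level of complex II, 24259.0 in DMSO at 24 h. The order of the complexes therefore depends on these lengths. Before this division UQCRFS1 had a mean of 7077 in DMSO at 24 h, between UQCR10 at 1925 and UQCRC2 at 14200, and NDUFV3 had 1207.5.

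The nuclear subunits differed little in size between AU-15330 and DMSO, and most of those that passed were higher. At 8 h 19 of 77 tested nuclear subunits rose, 1 fell and 57 did not pass. Among all tested genes 22.9% were higher and 21.4% lower at 8 h, so the share that rose, 24.7%, lay near the background, while 1.3% against 21.4% fell. At 24 h 32 of 77 rose, 7 fell and 38 did not pass, which is 41.6% and 9.09% where 24.7% of all tested genes were higher and 26.2% lower. The median log2 difference of the 77 subunits was 0.06 at 8 h and 0.08 at 24 h, against 0.02 and 0.01 over all tested genes. The absolute log2 difference was under 0.2 for 66 of 77 at 8 h and for 64 of 77 at 24 h, compared with 48.8% and 48.3% of all tested genes.

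With a log2 difference of at least 0.2 also asked for, 10 nuclear subunits rose and 1 fell at 8 h, and 11 rose and 2 fell at 24 h. The background under that rule was 19.5% higher and 19.9% lower at 8 h, and 20.5% higher and 23.0% lower at 24 h. Of the 77 nuclear subunits a smaller share than this rose and fell at both times. Their excess of rises at 24 h was therefore seen only without the size rule. The median SD within AU-15330 at 24 h was 0.042 for nuclear subunits and 0.0832 for all tested genes, and a low SD lets smaller differences pass. Over all 105 tested genes of the pathway, assembly factors, paralogues and pseudogenes included, 22 rose and 4 fell at 8 h and 35 rose and 10 fell at 24 h. The count that rose at 8 h was 11 without DMSO replicate 1 and 14 without DMSO replicate 2 at 8 h. The count that fell at 8 h was 14 without AU-15330 replicate 2 at 8 h, of which 10 were mitochondrial genes. Of the 77 nuclear subunits 13 rose and 1 fell at both times, 19 rose and 6 fell at 24 h alone by the threshold, 6 rose at 8 h alone, and 32 passed at neither. The signs matched at both times for 61 of 77, and Pearson's r between the log2 differences was 0.701 across these 77 genes, which are not independent replicates and whose 2 comparisons share no library.

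**Figure D2:**
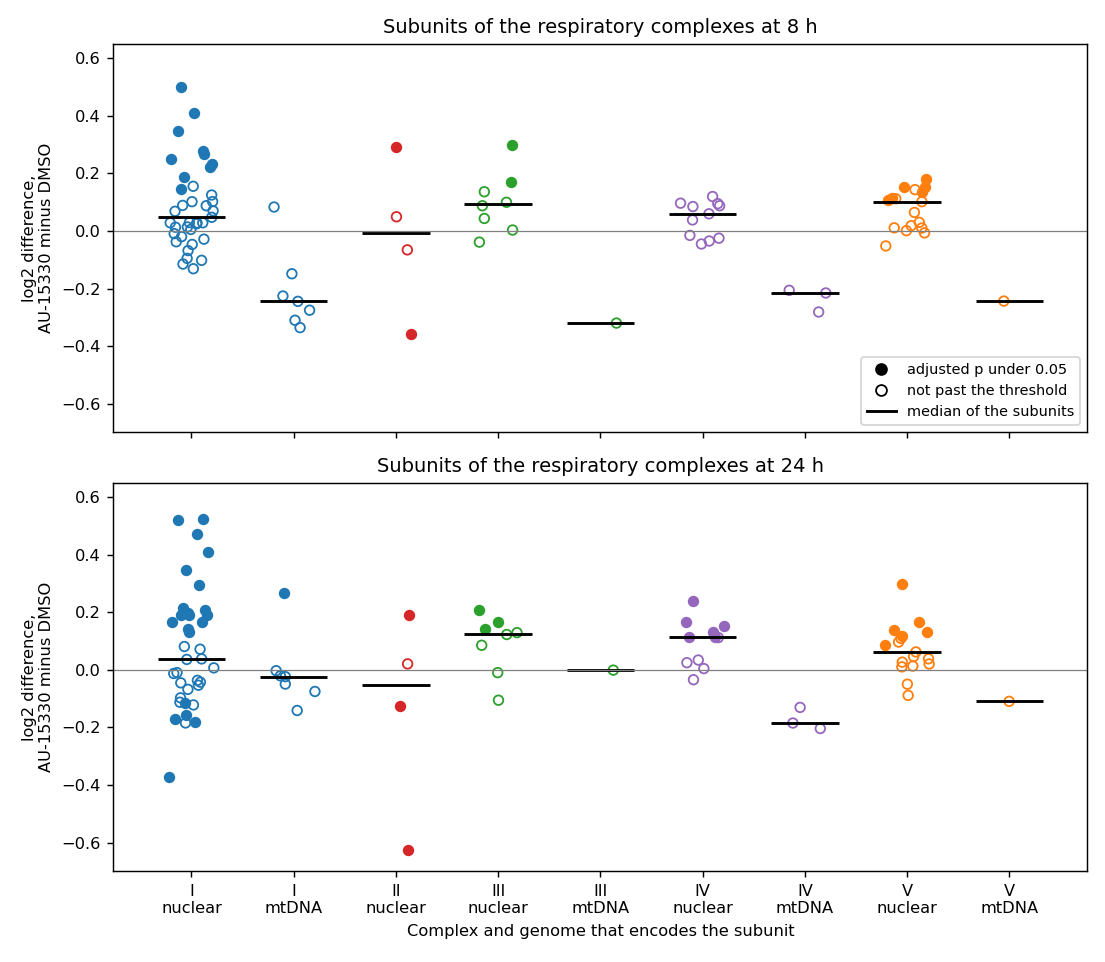
Log2 difference of each subunit between AU-15330 and DMSO (vertical axis) at 8 h (top) and 24 h (bottom), by complex and encoding genome (horizontal axis), with filled points for an adjusted p under 0.05 and a bar at the median of the subunits. Nuclear medians lay between -0.01 and 0.10 at 8 h and between -0.05 and 0.13 at 24 h, with SDHA of complex II the lowest point at both times.

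Complex I, the entry point for NADH, is the largest of the complexes. Of its 37 nuclear subunits 10 rose and none fell at 8 h by limma, and 16 rose and 5 fell at 24 h, with medians of 0.05 and 0.04. The shares that rose were 27.0% beside 22.9% of all tested genes at 8 h, and 43.2% beside 24.7% at 24 h.

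NDUFA6, an accessory subunit that binds an acyl carrier protein, rose by 0.41 ± 0.061 at 8 h and 0.47 ± 0.055 at 24 h (adjusted p = 2.23e-04 and 2.8e-05). Its symbol has 5 rows in the table, among which its reads can be split, so its level is uncertain. Summed over the rows it had 7679, 6818 and 7129 in AU-15330 and 5156 and 5613 in DMSO at 8 h, and 7426, 7118 and 7254 in AU-15330 and 5236, 4886 and 5155 in DMSO at 24 h. The summed differences were 0.42 ± 0.057 and 0.51 ± 0.051 on the log2 scale, so the direction and size held.

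The largest rises of complex I at 24 h were those of NDUFC1 and NDUFB4, accessory subunits of the membrane arm. NDUFC1 had 1812, 1723 and 1867 in AU-15330 at 8 h, against 1442 and 1609.6 in DMSO at 8 h. It had 2039.8, 2072 and 1841 in AU-15330 at 24 h, against 1353, 1361 and 1369.8 in DMSO at 24 h, with no overlap at either time. The log2 difference was 0.23 ± 0.07 at 8 h and 0.52 ± 0.062 at 24 h (adjusted p = 0.0199 and 3.65e-05). NDUFB4 rose by 0.35 ± 0.10 and 0.52 ± 0.092 (adjusted p = 0.0195 and 5.59e-04), with 4029.8, 4249.8 and 4377 normalised counts in AU-15330 and 2781, 2787 and 3224 in DMSO at 24 h. NDUFB1 rose by 0.27 ± 0.10 and 0.41 ± 0.089 (adjusted p = 0.0494 and 0.00226).

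The electron-carrying core of complex I moved in both directions. NDUFV2, the iron-sulphur subunit beside the flavin, rose by 0.22 ± 0.055 and 0.19 ± 0.049, and a processed copy, NDUFV2P1, shares its sequence. At 24 h NDUFS7, which passes electrons to ubiquinone, rose by 0.19 and NDUFS8 by 0.17. By contrast NDUFS1, an iron-sulphur subunit of the NADH dehydrogenase module, fell by 0.17 and NDUFV1, which binds NADH and flavin, by 0.11 (adjusted p = 0.00714 and 0.012). The symbol of NDUFS1 has 2 rows that hold the same values. The deepest fall among complex I subunits was that of NDUFA13, an accessory subunit also known as GRIM-19. It had 8487, 8521 and 7499 normalised counts in AU-15330 and 10919.6, 10165 and 10619 in DMSO at 24 h, without overlap, a log2 difference of -0.37 ± 0.067 (adjusted p = 7.83e-04). At 8 h its difference was -0.11 ± 0.075 (adjusted p = 0.234). NDUFS6 and NDUFA7 also fell at 24 h, at -0.18 and -0.16.

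In the assembly factors of complex I the calls were split. NDUFAF6 fell by 0.26 and 0.48 and NDUFAF8 by 0.31 and 0.39 on the log2 scale at 8 h and 24 h (adjusted p = 0.00416, 3.2e-05, 0.00338 and 3.08e-04). NDUFAF8 had 1947, 1889 and 1914 normalised counts in AU-15330 and 2431, 2414 and 2775 in DMSO at 24 h. NDUFAF3 rose by 0.17 and 0.22. NDUFAF1 rose at 8 h, with 1798, 1782 and 1869 in AU-15330 and 1426 and 1555 in DMSO, by 0.28 ± 0.064 (adjusted p = 0.00412). At 24 h it had 1552, 1457 and 1418 in AU-15330 and 1656, 1535 and 1607 in DMSO, a difference of -0.11 ± 0.058 that did not pass (adjusted p = 0.127). NDUFAF2, NDUFAF4, NDUFAF5 and NDUFAF7 passed at neither time, with log2 differences between -0.17 and 0.18.

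Of 13 further assembly genes of complex I, 5 rose and 1 fell at 8 h, and 4 rose and 3 fell at 24 h, with medians of 0.11 and 0.00. Of all tested genes 22.9% were higher and 21.4% lower at 8 h, and 24.7% higher and 26.2% lower at 24 h. TMEM126A rose by 0.62 and 0.47 and ECSIT by 0.49 and 0.39, while TMEM126B, another assembly factor, fell by 0.16 and 0.25. FOXRED1 fell by 0.52 at 24 h (adjusted p = 3.83e-05).

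Complex II held the largest change of any subunit at 24 h, in a gene whose partner went the other way. SDHA, the flavoprotein that oxidises succinate, had 10413, 10136 and 9923 normalised counts in AU-15330 at 8 h, against 12644 and 13443 in DMSO at 8 h. At 24 h it had 9975, 10626 and 9772 in AU-15330, against 15076, 16142 and 15708 in DMSO. The AU-15330 libraries of both times overlapped, and the DMSO libraries of 24 h were all above those of 8 h. The log2 difference was -0.36 ± 0.047 at 8 h and -0.62 ± 0.042 at 24 h (adjusted p = 1.1e-04 and 3.17e-07). Between the DMSO groups SDHA was higher at 24 h than at 8 h by 0.26 ± 0.047 (adjusted p = 0.00516). SDHAP1, SDHAP2 and SDHAP3, pseudogenes that share sequence with SDHA, made up 4.26% to 7.27% of the counts of SDHA and the pseudogenes together. Summed with them, SDHA differed by -0.37 at 8 h and -0.59 at 24 h.

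SDHB, the iron-sulphur subunit that takes the electrons from SDHA, moved the other way. It had 8038, 7717 and 7649 in AU-15330 and 6380.1 and 6325 in DMSO at 8 h. SDHB had, at 24 h, 6833, 6803 and 6730.1 in AU-15330 and 6149, 5903 and 5765 in DMSO. The log2 difference was 0.29 ± 0.04 at 8 h and 0.19 ± 0.035 at 24 h (adjusted p = 1.17e-04 and 9.77e-04). The membrane anchors had small differences. SDHC had log2 differences of 0.05 ± 0.053 and 0.02 ± 0.048, neither of which passed, and SDHD fell at 24 h only by the threshold, by 0.13 (adjusted p = 0.0492), against -0.07 ± 0.054 at 8 h. Of the 4 assembly factors of complex II, SDHAF2, which attaches flavin to SDHA, rose at 8 h by 0.26 (adjusted p = 0.00407), and none passed at 24 h by limma, with none at an unadjusted p under 0.05. Over all tested genes 22.9% were higher at 8 h, and 24.7% were higher and 26.2% lower at 24 h.

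**Figure D3:**
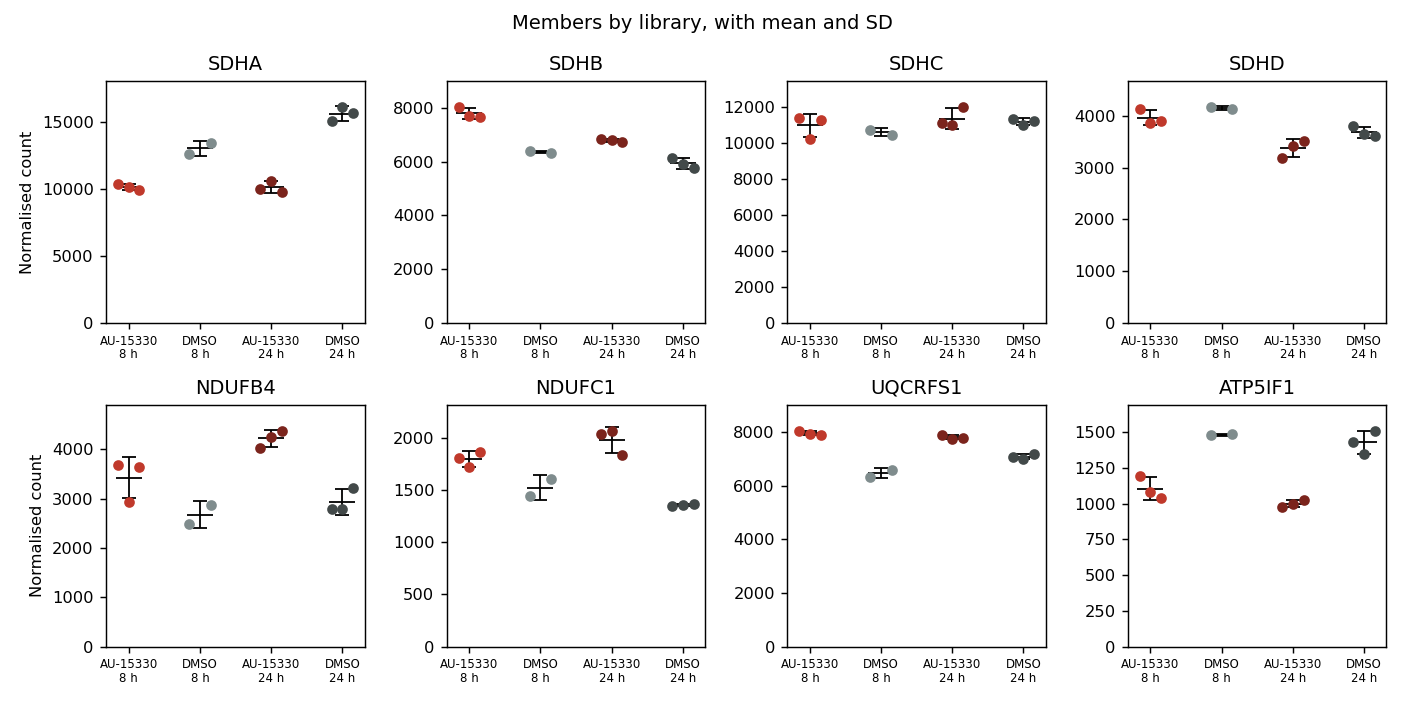
Normalised counts (vertical axes, from 0) of 8 genes in each library, by treatment and time, with the mean as a dash and the SD as bars. SDHA was lower and SDHB higher in every AU-15330 library than in every DMSO library of the same time, and NDUFB4, NDUFC1 and UQCRFS1 were higher while ATP5IF1, shown by 1 of its 2 equal rows, was lower.

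The name patterns took in 8 nuclear subunits of complex III and left out CYC1. Of these 8 subunits 2 rose at 8 h and 3 at 24 h and none fell by limma, with medians of 0.09 and 0.13. The share that rose at 8 h, 25.0%, was near the 22.9% of all tested genes, and at 24 h it was 37.5% beside 24.7%. UQCRFS1, the Rieske iron-sulphur protein, had 8048, 7941 and 7891 normalised counts in AU-15330 and 6334 and 6593 in DMSO at 8 h. The same gene had 7893, 7754 and 7784 in AU-15330 and 7078, 6983 and 7171 in DMSO at 24 h, again without overlap. The log2 difference was 0.30 ± 0.035 at 8 h and 0.14 ± 0.031 at 24 h (adjusted p = 4.27e-05 and 0.00268). UQCRC1, a core subunit, rose by 0.17 ± 0.047 and 0.21 ± 0.042, and UQCRB, which binds ubiquinone, rose at 24 h by 0.17 ± 0.039. UQCRH, the hinge protein, and its near copy UQCRHL did not pass, with differences between -0.03 and 0.09, and their reads may be shared. Among 8 measured genes for assembly and cytochrome c1, 3 rose and 1 fell at 8 h, and 2 rose and 1 fell at 24 h. The shares of all tested genes that fell were 21.4% at 8 h and 26.2% at 24 h. CYC1, the cytochrome c1 subunit of complex III, rose by 0.30 and 0.13, UQCC2, an assembly factor of cytochrome b, by 0.47 and 0.48, and UQCC3 fell by 0.27 and 0.24.

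Complex IV subunits passed at 24 h alone by the threshold. Of 11 tested nuclear subunits none passed at 8 h by limma, and 6 rose and none fell at 24 h, NDUFA4 among them, with medians of 0.06 and 0.11. The share that rose at 24 h was 54.5% beside 24.7% of all tested genes. The largest rise was that of COX7A2, the common isoform of its accessory subunit, with 9488, 9408 and 8586 normalised counts in AU-15330 and 7846, 7638 and 7759.6 in DMSO at 24 h. It differed by 0.24 ± 0.055 at 24 h and 0.12 ± 0.062 at 8 h (adjusted p = 0.00378 and 0.14). COX7C rose by 0.17, COX6B1 by 0.15 and COX8A by 0.13 at 24 h. COX7A2L, a factor that joins complexes III and IV into supercomplexes, is related to COX7A2 and rose as well. It had 7314, 7525 and 7416 in AU-15330 and 5914, 5643 and 5874 in DMSO at 24 h, a difference of 0.35 ± 0.057 (adjusted p = 3.29e-04), against 0.14 ± 0.063 at 8 h (adjusted p = 0.0943). COX4I1 and COX6A1, the common isoforms of subunits IV and VIa, did not pass at either time, with differences between -0.03 and 0.04. COX6B2, known from testis, had 2.62 to 41 normalised counts over all libraries and was not tested. COX4I2, COX6A2, COX7A1 and COX8C are not analysed here.

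NDUFA4, a subunit first assigned to complex I, rose by 0.11 ± 0.041 at 24 h (adjusted p = 0.0379). NDUFA4L2, its hypoxia-inducible paralogue, was at 137 to 211 normalised counts over all libraries and did not pass. Of 28 assembly genes of complex IV 12 rose and 2 fell at 8 h, and 8 rose and 5 fell at 24 h, with medians of 0.13 and 0.01. Beside them, 22.9% of all tested genes were higher and 21.4% lower at 8 h, and 24.7% and 26.2% at 24 h. COX20, a chaperone of the copper subunit MT-CO2, was the largest, with a mean of 3730.4 in AU-15330 and 1432 in DMSO at 8 h, and 3194 in AU-15330 and 1586 in DMSO at 24 h. It rose by 1.35 ± 0.089 and 0.98 ± 0.08 (adjusted p = 3.86e-07 and 1.11e-06). COA6, also of the copper pathway, rose by 0.49 and 0.54, and HIGD1A fell by 0.20 and 0.36.

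Complex V subunits rose in 6 of 17 cases at each time and none fell, with medians of 0.10 and 0.06. That is 35.3%, beside 22.9% of all tested genes at 8 h and 24.7% at 24 h. The subunit c genes ATP5MC1, ATP5MC2 and ATP5MC3 encode the same mature protein of the rotor ring. ATP5MC2 had 32816, 32790.1 and 33581 normalised counts in AU-15330 and 30249.6 and 28065 in DMSO at 8 h. At 24 h it had 36396, 36253 and 35389 in AU-15330 and 30014, 28376 and 29376 in DMSO, without overlap. The log2 difference was 0.18 ± 0.038 at 8 h and 0.30 ± 0.034 at 24 h (adjusted p = 0.0024 and 2.2e-05). ATP5MC3 rose at 24 h by 0.13 ± 0.038, whereas ATP5MC1 had 0.14 ± 0.057 and 0.10 ± 0.051 and did not pass. Per kilobase ATP5MC2 was also the most abundant of these 3 genes, with 36050.0 normalised counts in DMSO at 24 h, against 22460.0 for ATP5MC3 and 20760.0 for ATP5MC1. ATP5F1B and ATP5F1C, the rotor subunit gamma, rose at 8 h by 0.15 and 0.15 and had 0.04 and 0.01 at 24 h, where neither passed. ATP5MF, ATP5MD and the stalk subunits ATP5PD and ATP5PO rose at 24 h by 0.17, 0.14, 0.12 and 0.09.

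ATP5IF1, which inhibits ATP hydrolysis by the synthase, fell. Its symbol has 2 rows that hold the same values, so their sum adds no further evidence. Summed over its 2 rows it had 2394, 2164 and 2081 in AU-15330 and 2958 and 2976 in DMSO at 8 h. At 24 h it had 1949.5, 2003 and 2049.6 in AU-15330 and 2858, 2693 and 3023 in DMSO. Each row fell by 0.41 ± 0.074 at 8 h and 0.49 ± 0.066 at 24 h on the log2 scale (adjusted p = 8.2e-04 and 8.59e-05). Of 7 assembly genes of complex V, ATPAF1, which binds the beta subunit, fell by 0.35 and 0.38, DMAC2L rose by 0.30 at 24 h, and the other 5 passed at neither time. The shares over all tested genes were 22.9% higher and 21.4% lower at 8 h, and 24.7% higher and 26.2% lower at 24 h.

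None of the 12 mitochondrially encoded subunits passed at 8 h by limma, and none had an unadjusted p under 0.05 there, while 1 rose at 24 h. At 8 h 11 of 12 were lower on average in AU-15330, with a median log2 difference of -0.24 and a range of -0.34 to 0.08. Their standard errors were large, with a median of 0.147 against 0.0531 for the nuclear subunits, and the AU-15330 libraries of 8 h differed among themselves, with a median SD of 0.318 against 0.0556 for the nuclear subunits. MT-CO1, the catalytic subunit of complex IV, had 103435, 157917 and 113356 normalised counts in AU-15330 and 160242 and 139004 in DMSO at 8 h. MT-ND4, a proton-pumping subunit of complex I, had 54117, 83375 and 62356 in AU-15330 and 87506 and 78168 in DMSO at 8 h. MT-CYB, the cytochrome b of complex III, had 16651, 25914 and 19533 in AU-15330 and 28350.5 and 22788 in DMSO at 8 h. In each case replicates 1 and 3 were below both DMSO libraries and replicate 2 lay between them. In all 12 genes replicate 2 was the highest and replicate 1 the lowest of its group.

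Relative to the DMSO mean of 8 h, the median of the 12 genes was -0.50, 0.08 and -0.33 in the AU-15330 libraries and 0.09 and -0.09 in the DMSO libraries on the log2 scale. Without AU-15330 replicate 2 at 8 h, 10 of 12 fell, by 0.37 to 0.51 (adjusted p = 9.42e-04 to 0.0416), where 20.8% of all tested genes were higher and 19.9% lower. This setting was chosen after seeing the data, and MT-ND2 and MT-ND3 did not pass in it. Replicate 2 was the highest of its group in all 12 genes, so leaving it out had to lower every difference. These adjusted p therefore do not test a fall. The 12 genes also kept the same order of libraries in this group, so they are not separate observations. The median difference was then -0.41, against -0.12 without replicate 1 and -0.20 without replicate 3. For the nuclear subunits the same median was 0.11, 0.03 and 0.07 in these AU-15330 libraries. Replication-dependent histone genes, whose mRNA carries no poly(A) tail, took up 0.0167%, 0.0181% and 0.016% of the counts in AU-15330 and 0.0196% and 0.025% in DMSO at 8 h. They took up 0.0302%, 0.0321% and 0.026% in AU-15330 and 0.0258%, 0.0278% and 0.0263% in DMSO at 24 h. The labels name a poly(A) kit and a ribosomal depletion kit without saying which library was made with which, and the part of the kit in the mitochondrial values was not tested.

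**Figure D4:**
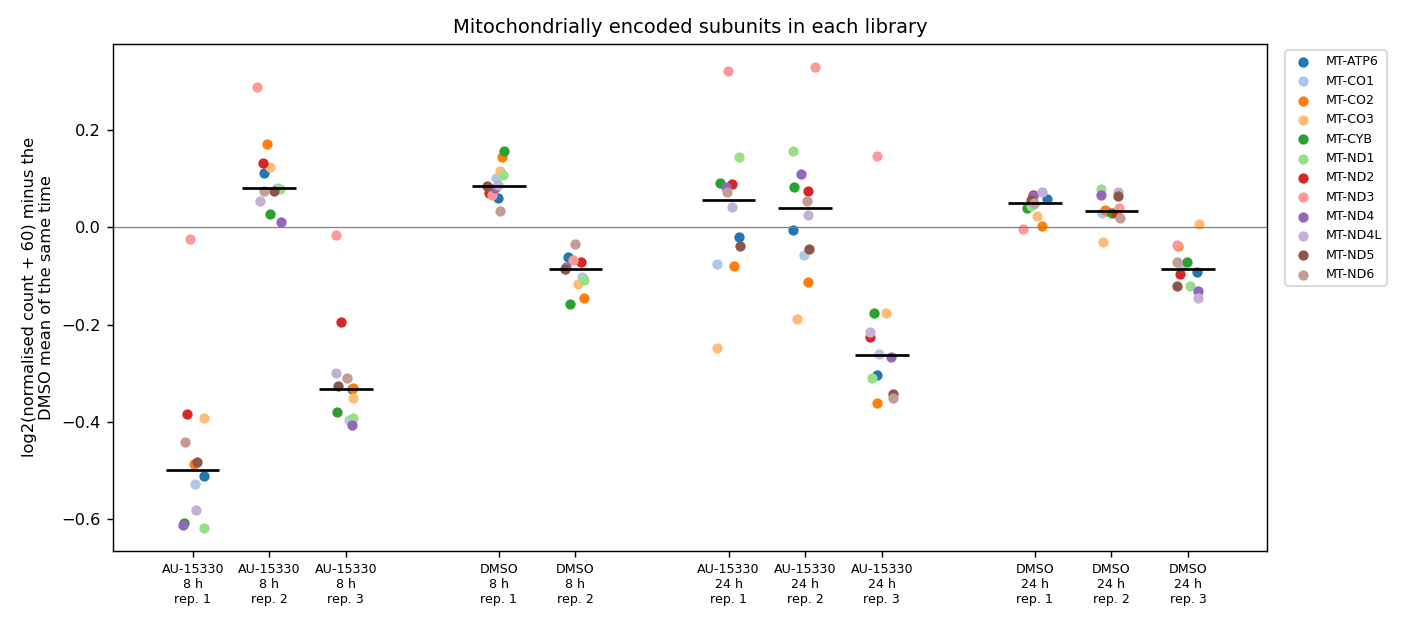
Log2(normalised count + 60) of each of the 12 mitochondrially encoded subunits minus the DMSO mean of the same time (vertical axis) in each library (horizontal axis), with a bar at the median of the 12. AU-15330 replicates 1 and 3 at 8 h had medians of -0.50 and -0.33 and replicate 2 had 0.08, while at 24 h replicate 3 of AU-15330 was at -0.26.

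At 24 h the median difference of the 12 genes was -0.06, with a range of -0.20 to 0.27. MT-ND3, a membrane subunit of complex I, rose, with 8696, 8748 and 7704 normalised counts in AU-15330 and 6936, 7139.8 and 6772 in DMSO at 24 h, by 0.27 ± 0.082 (adjusted p = 0.0151). The call was lost without AU-15330 replicate 1 or replicate 2 at 24 h. At 8 h MT-ND3 was the 1 mitochondrial gene with a positive difference, 0.08 ± 0.091 (adjusted p = 0.496). The complex IV genes MT-CO1, MT-CO2 and MT-CO3 had -0.13, -0.18 and -0.20 at 24 h, and MT-ATP6, the proton channel of the synthase, had -0.11. The complex I genes MT-ND1, MT-ND2, MT-ND4, MT-ND4L, MT-ND5 and MT-ND6 had -0.00, -0.02, -0.02, -0.05, -0.14 and -0.08. None of these passed. MT-CO2 and MT-CO3 were still lower in every AU-15330 library than in every DMSO library at 24 h, while the others named here overlapped. MT-CO3 had 104358, 108631 and 109677 in AU-15330 and 125816, 121319 and 124492 in DMSO at 24 h. The fit shares 1 estimate of spread over the 4 groups. The SD of MT-CO3 was 19000 in AU-15330 at 8 h, against 2820 in AU-15330 and 2310 in DMSO at 24 h. AU-15330 replicate 3 was the lowest of its group in 11 of 12 genes and DMSO replicate 3 in 11 of 12. Nuclear copies of mitochondrial genes share these reads. MTATP6P1 took 11.7% to 12.4% of the counts of MT-ATP6 and itself, and MTND1P23 took 4.8% to 6.67% of those of MT-ND1 and itself.

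Between the DMSO groups the means of all 12 mitochondrial genes were higher at 24 h than at 8 h, with a median of 0.30 and a range of 0.06 to 0.40 on the log2 scale. None passed by limma in the fit over all 4 groups, where 5 of 12 had an unadjusted p under 0.05. A fit on the DMSO groups alone called 7 of 12 higher, and the fit over all groups without AU-15330 replicate 2 at 8 h, which is not in this comparison but enters the estimate of spread, called 6. Among all members 2 genes were higher at 24 h, SDHA and UQCRFS1, by 0.26 and 0.13, and NDUFAF5, an assembly factor, was lower by 0.38 ± 0.085 (adjusted p = 0.0155). In the fit over all 4 groups 6.56% of all tested genes were higher and 3.56% lower. The shares of all tested genes in the other fits are not given here, so the counts of 7 and 6 stand without a background. Time and batch cannot be told apart in this comparison.

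The effect of AU-15330 differed between the times in 6 of 105 tested genes of the pathway, all 6 with a lower value at 24 h, where 11.0% of all tested genes had a lower and 7.54% a higher effect at 24 h. The direction of these calls turned with the scale, since 8 members were higher and 2 lower on log2(CPM + 1) and on log2(CPM + 5), 7 higher and 2 lower after quantile normalisation, and 4 higher and 5 lower with library medians centred. NDUFV3, an accessory subunit of the NADH dehydrogenase module, had 1482, 1403 and 1563 normalised counts in AU-15330 and 1167 and 1306 in DMSO at 8 h. At 24 h it had 1052, 1107 and 1006 in AU-15330 and 1276, 1216 and 1130.4 in DMSO. It was thus above DMSO in every library at 8 h and below it in every library at 24 h, with differences of 0.25 ± 0.079 and -0.18 ± 0.071, the second of which did not pass, and an effect at 24 h minus that at 8 h of -0.44 ± 0.11 (adjusted p = 0.0159). NDUFAF1 differed by -0.39 ± 0.086 (adjusted p = 0.01) and SDHA, whose fall was deeper at 24 h, by -0.27 ± 0.063 (adjusted p = 0.0137). NDUFA8, an accessory subunit of the membrane arm, had 3215, 2979 and 3138 in AU-15330 and 2535 and 2571 in DMSO at 8 h. NDUFA8 then had 2723, 2736 and 2719 in AU-15330 and 2755, 2639 and 2571 in DMSO at 24 h, where the groups overlapped, and its effects differed by -0.24 ± 0.067 (adjusted p = 0.0279). UQCRFS1 rose at both times and by less at 24 h, with a difference of -0.16 ± 0.046 (adjusted p = 0.0397). The 3 largest differences in the other direction were those of MT-CYB, MT-ND4 and MT-ND1, at 0.32, 0.31 and 0.31, and none passed (adjusted p = 0.329, 0.353 and 0.438). The count of 6 was 3 without AU-15330 replicate 3 at 8 h, 1 without DMSO replicate 1 at 8 h, 3 without AU-15330 replicate 2 at 24 h, and 3 without DMSO replicate 1 or replicate 2 at 24 h. Only NDUFAF1 kept its call under all settings run, and NDUFV3, SDHA, NDUFA8 and UQCRFS1 each lost it in at least 1.

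**Figure D5:**
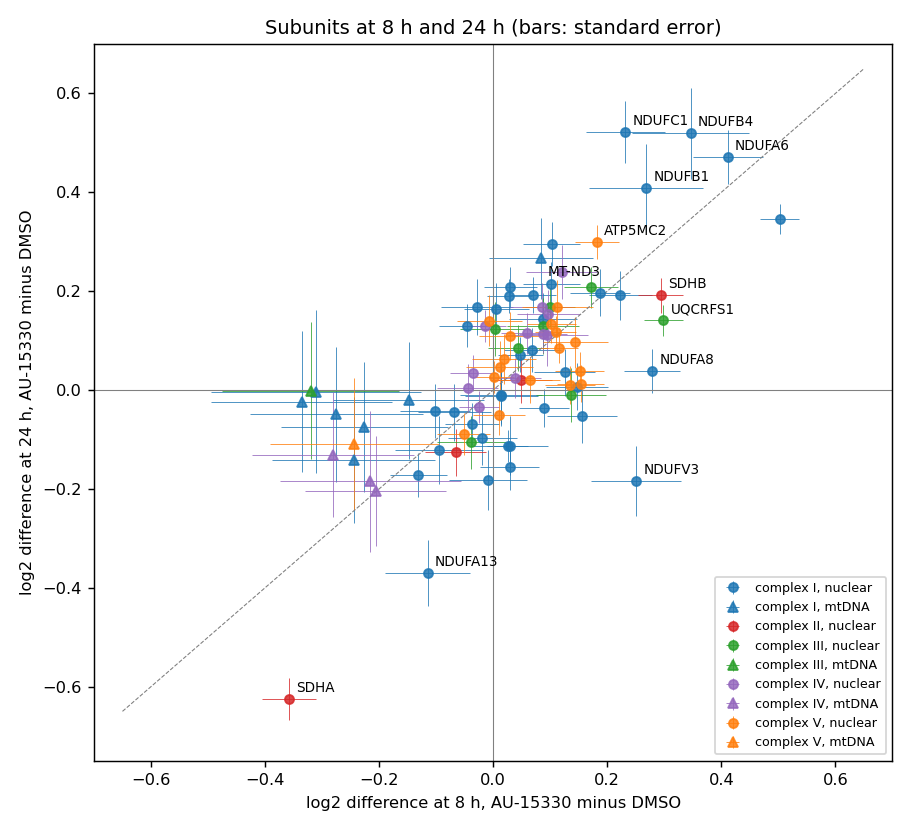
Log2 difference between AU-15330 and DMSO at 8 h (horizontal axis) and at 24 h (vertical axis) of the 89 tested subunits, by complex and genome, with standard errors as bars and the dashed line marking equal differences. NDUFV3 and NDUFA8 lie below the line, SDHA is at -0.36 and -0.62, and the mitochondrial genes lie to the left of 0 at 8 h except MT-ND3.

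Genes that act on the mitochondrial genome and its RNA were followed beside the 12 mitochondrial genes. The background for their counts was 22.9% higher and 21.4% lower of all tested genes at 8 h, and 24.7% and 26.2% at 24 h. Of 20 genes of mitochondrial transcription and DNA maintenance 10 rose and 2 fell at 8 h, and 5 rose and 4 fell at 24 h, with medians of 0.21 and -0.06. POLRMT, the mitochondrial RNA polymerase, rose by 0.54 ± 0.057 and 0.26 ± 0.051, and TOP1MT, a mitochondrial topoisomerase, fell by 0.88 and 0.39. Of 25 measured genes of mitochondrial RNA processing and stability 9 rose and 1 fell at 8 h, and 1 rose and 10 fell at 24 h, with medians of 0.14 and -0.10. PRORP, the protein that cuts the 5′ ends of mitochondrial tRNAs, rose by 0.25 at 8 h and fell by 0.12 at 24 h, and PDE12, which shortens poly(A) tails in mitochondria, rose by 0.14 and fell by 0.20. The effect differed between the times in 9 of these 25 genes, all lower at 24 h. Of all tested genes 11.0% had a lower and 7.54% a higher effect at 24 h.

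Among the 15 measured nuclear regulators of respiration genes 5 rose and 3 fell at 8 h, and 4 rose and 6 fell at 24 h. For these and the electron carriers below, the shares of all tested genes were 22.9% higher and 21.4% lower at 8 h. At 24 h they were 24.7% and 26.2%. ESRRA, a nuclear receptor that drives such genes in other tissues, fell by 0.79 and 0.46. MYC rose by 0.35 at 8 h and fell by 0.19 at 24 h, with means of 64080.4 normalised counts in AU-15330 and 50135 in DMSO at 8 h, and 48629 in AU-15330 and 55400.2 in DMSO at 24 h. TFEB fell by 0.43 and 0.96, while its relative TFE3 rose by 0.28 and 0.58. Among 19 tested electron carrier genes 6 rose and 4 fell at 8 h, and 4 rose and 5 fell at 24 h. CYCS, cytochrome c, rose by 0.25 and 0.16, and DHODH, which feeds electrons from pyrimidine synthesis to ubiquinone, by 0.77 and 0.54.

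The citric acid cycle, to which SDHA also belongs by its function, was measured together with pyruvate dehydrogenase, which feeds it, in a list of 18 other genes that includes PDHA1, PDHB, PDHX and DLAT. Of the 18 genes 3 rose and 6 fell at 8 h and 3 rose and 9 fell at 24 h. Over all tested genes 22.9% were higher and 21.4% lower at 8 h, and 24.7% higher and 26.2% lower at 24 h. IDH2, the mitochondrial isocitrate dehydrogenase that makes NADPH, fell by 0.34 ± 0.035 and 0.71 ± 0.032, CS, the citrate synthase, by 0.45 and 0.59, and FH, the fumarase that follows complex II, by 0.22 and 0.38 on the log2 scale. OGDH, which makes succinyl-CoA, fell at 24 h by 0.54 (adjusted p = 2.36e-06) and had -0.07 at 8 h.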

How the data were processed

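RNA of Z138 cells was sequenced after AU-15330 or DMSO, and the submitters' processing notes list kallisto 0.46.1, DESeq2 1.24.0, R 4.3.2 and Trimmomatic 0.40, with GRCh38.p13 as the build. The authors deposited 1 table of values on a variance-stabilised, log2-like scale with a floor of 10.36053, on which a doubling is 0.461 at 1000 and 0.852 at 10000 normalised counts. The table was inverted to normalised counts, and too few values came out as whole reads (51% to 56% within 0.02 per library) for a count test. Estimated totals were 50700000 to 67600000 counts, which sets the precision of low genes. The 12721 genes that reached 1 CPM in 3 or more libraries were fitted with limma 3.58.1 in R 4.3.3 on the deposited scale, with a term per group and 7 residual degrees of freedom. The Benjamini-Hochberg adjusted p has a threshold of 0.05. Fits were tested on simulated data. The members and lists were chosen with earlier results of these data known. The rule for named genes took the mitochondrial subunits, SDHA to SDHD, the isoform pairs, NDUFAF1 to NDUFAF8, ATP5IF1, the 3 largest rises and 3 largest falls past the threshold in each of complexes I, III, IV and V at each time, the 3 largest differences between the times in each direction, and the 4 smallest p of each list at each time. NDUFA7, NDUFA8, NDUFB1, NDUFS1, NDUFS6, NDUFS7, NDUFS8, NDUFV1, NDUFV2, ATP5PD and ATP5PO lie outside it and were chosen after their values were seen. Some results are not reported here.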

Additional observations from a re-analysis of the deposited data

Results flagged for a closer look

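The effect of AU-15330 differed between 24 h and 8 h, by a test of the difference itself (limma), in the members and named list genes given here. Each value is the log2 effect at 24 h minus that at 8 h. Among the members it was -0.2407 for NDUFA8, -0.3883 for NDUFAF1, -0.4354 for NDUFV3, -0.2664 for SDHA and -0.1571 for UQCRFS1. Of these member calls only that of NDUFAF1 was kept under all settings run. Time and batch cannot be told apart in these values. Among assembly genes it was -0.3043 for AIFM1, -0.336 for FOXRED1, -0.3669 for COX20, -0.3908 for TMEM177 and 0.4294 for DMAC2L. Among electron carriers and regulators it was 0.816 for COQ10A, -0.5416 for MYC, 0.3028 for TFE3 and -0.531 for TFEB. Among genes of mitochondrial transcription and DNA maintenance it was 0.1856 for DNA2, -0.3652 for MTERF3, -0.2778 for POLRMT and 0.4887 for TOP1MT. Among genes of mitochondrial RNA processing it was -0.2751 for FASTKD2, -0.2963 for MRM3, -0.289 for NSUN4, -0.3422 for PDE12, -0.3717 for PRORP and -0.3368 for TRMT10C. In the list of the citric acid cycle and pyruvate dehydrogenase, to which DLAT belongs, it was -0.2343 for DLAT, -0.3659 for IDH2 and -0.4742 for OGDH. Among the cell type markers it was -1.1346 for CD79A, -0.6028 for CD79B, -0.8855 for MS4A1 and 0.9613 for SOX11.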

How the results depend on the processing

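Of 26 members past the threshold at 8 h 10 kept the call under all settings run, and of 45 at 24 h 29 did, against 1 of 6 for the difference between the times and 0 of 3 between the DMSO groups. Leaving out 1 library at a time gave 11 to 30 members higher and 4 to 14 lower at 8 h, and 24 to 37 higher and 8 to 10 lower at 24 h. For the difference it gave 0 to 3 higher and 1 to 6 lower, and between the DMSO groups 0 to 7 higher and 0 to 2 lower. For the mitochondrial genes it gave 0 to 10 lower at 8 h, 0 to 1 higher and 0 to 1 lower at 24 h, 0 to 1 higher in the difference and 0 to 6 higher between the DMSO groups. The counts of 30, 14, 7, 10 and 6 came without AU-15330 replicate 2 at 8 h. Among 15 same-number pairs of libraries from different groups, 1 correlated over 0.1 (-0.0434 to 0.134). Pairs of different numbers were not compared, so this does not settle whether the replicate numbers pair the samples. The replicate block gave 22 members higher at 8 h, 34 at 24 h and 1 mitochondrial gene higher between the DMSO groups. Asking for a log2 difference of at least 0.2 left 12 of 105 higher at 8 h, and 14 higher and 5 lower at 24 h. Under that rule 19.5% of all tested genes were higher at 8 h, and 20.5% higher and 23.0% lower at 24 h. On log2(CPM + 1) and log2(CPM + 5) 6 members were lower at 24 h, 8 higher and 2 lower in the difference, and 1 higher and 4 lower between the DMSO groups. Quantile normalisation gave 7 higher and 2 lower in the difference and 1 higher and 3 lower between the DMSO groups, and centred medians gave 4 higher in the difference and 1 higher and 2 lower between the DMSO groups. Without a filter 1 was higher between the DMSO groups, a filter of 5 CPM gave 1 higher in the difference and 2 lower between the DMSO groups, and a prior without trend gave 1 higher in the difference and 2 lower between the DMSO groups. Fitted on its own groups, the DMSO comparison gave 8 higher, 7 of them mitochondrial, and 0 lower, and 1 mitochondrial gene was lower at 24 h. The shares of all tested genes in these fits are not given here. The median log2 difference of nuclear members at 24 h was 0.1177 with library totals made equal, 0.1172 with totals equal without mitochondrial genes and 0.1136 with quantile normalisation, against 0.0717 in the main fit. Over all tested genes the same median moved too, from 0.0088 to 0.059, 0.0585 and 0.0536. The median log2 difference of nuclear members in the difference between the effects was 0.0718, 0.0734 and 0.0644 under those settings, and -0.0299 to 0.0176 on leaving out a library. It was 0.01 in the main fit, and over all tested genes it moved from -0.0225 to 0.0352, 0.0368 and 0.0007. The median log2 difference of nuclear members in DMSO at 24 h against 8 h was -0.0475 with library totals made equal, against -0.0169 in the main fit. Over all tested genes it moved from 0.0055 to -0.0224. CCND1 at 24 h reversed under quantile normalisation, to 0.1129. The cause was not tested in any of these cases. Precision was limited by 2 to 3 libraries a group, with median standard errors of 0.0531 at 8 h and 0.0475 at 24 h for nuclear subunits and 0.147 and 0.132 for mitochondrial ones.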
